A study of Arabidopsis thaliana with 248 samples.

Results

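The mRNA of F1 plants in which H3K9 methylation and non-CG DNA methylation can be established again, but without the H3K4 demethylase homolog LDL2, was compared with that of both of their parents, which also lack LDL2. The comparison was defined by the genotypes alone: the 2 groups of F1 plants, sxc ldl2 and cxs ldl2, were set against suvh456 ldl2 and cmt23 ldl2, in 12 of the 248 samples of the series. All of these plants are Arabidopsis thaliana and carry the ldl2-1 allele. Read by the order of the names, sxc ldl2 is the F1 of a suvh456 ldl2 seed parent and a cmt23 ldl2 pollen parent. cxs ldl2 is the F1 of the reciprocal cross. suvh456 ldl2 lacks functional copies of the H3K9 methyltransferase genes SUVH4, SUVH5, and SUVH6, and cmt23 ldl2 of the chromomethylase genes CMT2 and CMT3. The F1 plants are heterozygous for all of these mutations except ldl2. RNA came from whole 2-week-old seedlings, in 3 independent biological replicates for each genotype, so a level is an average over all tissues, and fewer cells with a transcript cannot be told apart from less transcript per cell. The same 4 genotypes with functional LDL2 (sxc, cxs, suvh456, and cmt23) and wild type (WT), 3 libraries each, were sequenced with them and are given where they serve as a reference.

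In heterochromatin, SUVH4, SUVH5, and SUVH6 bind methylated DNA and methylate H3K9, while CMT2 and CMT3 bind methylated H3K9 and methylate cytosines outside CG sites. Each mark is needed for the other, so either mutant loses both, and many transposable elements (TEs) are transcribed. An F1 of the mutants has every enzyme again but inherits chromosomes that had lost the marks, which makes it an assay for the new establishment of silencing. LDL2 is a homolog of the human H3K4 demethylase LSD1, and H3K4 methylation accompanies transcription.

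Of the 12 libraries, 1 stood apart by several measures. The second replicate of cxs ldl2 had counts on 30088 genes, against 25149 to 27758 genes in the other 11 libraries, and its TMM scaling factor was 1.307, against 0.933 to 1.085. It also had 36597 CPM (counts for each 1000000 of the library) on protein-coding genes that the table counts on the strand opposite to their annotation, where the other 11 libraries had 11560 to 20573. The summed level of 13 photosynthesis genes, which mark green tissue, was 24900 CPM in it, between 43800 and 80100 CPM in the other 5 F1 libraries, and between 71300 and 87300 CPM in the 6 parental libraries. Seed markers summed to at most 5.11 CPM and flower markers to at most 14.1 CPM in all 12 libraries, and both maxima were in this library. By the mean correlation of log2 CPM with its own group it did not stand apart. The value was 0.9215, against 0.9218 in the third sxc ldl2 library and 0.9254 in the first cxs ldl2 library. The part of the second cxs ldl2 library in the results was tested by leaving it out. The library totals were 9125971 to 12119101 counts, so a gene with no counts in the 6 F1 libraries lies below about 3 counts over the scaled total of these libraries. Levels of genes are in CPM of the TMM-scaled library, which is not divided by gene length, so they are compared between genotypes and not between genes.

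The mutated genes were examined first. SUVH4 had 8.42, 7.83, and 8.89 CPM in sxc ldl2 and 9.89, 11.8, and 9.62 CPM in cxs ldl2, against 3.70, 3.19, and 3.31 CPM in suvh456 ldl2 and 10.9, 12.8, and 16.2 CPM in cmt23 ldl2. CMT3 had 20.6, 21.2, and 22.8 CPM in sxc ldl2 and 22.8, 28.1, and 20.4 CPM in cxs ldl2, against 28.7, 29.9, and 28 CPM in suvh456 ldl2 and 7.95, 8.99, and 9.78 CPM in cmt23 ldl2. For both genes every F1 library lay above every library of the parent that is homozygous for the mutation. Only the second cxs ldl2 library overlapped with the other parent, and the other F1 libraries were below that parent. SUVH5 averaged 3.18 ± 0.532 CPM in sxc ldl2 and 2.98 ± 0.987 CPM in cxs ldl2, against 1.26 ± 0.395 CPM in suvh456 ldl2 and 4.03 ± 0.949 CPM in cmt23 ldl2 (SD, n = 3 each). CMT2 and LDL2 did not separate the genotypes by their counts: CMT2 had 21.8 to 36.6 CPM in the F1 libraries and 27.7 to 35.9 CPM in the parents, and LDL2 itself had 2.16 to 5.37 CPM in the F1 libraries, 2.62 to 4.04 CPM in the parents, and 3.89 to 5 CPM in WT. SUVH6 levels did not overlap between the directions of the cross, with 51.0, 38, and 40.4 CPM in sxc ldl2 and 13.9, 18.9, and 16.5 CPM in cxs ldl2, against 15.1, 30.4, and 12.2 CPM in suvh456 ldl2 and 22.2, 19.9, and 21.8 CPM in cmt23 ldl2. All 3 sxc ldl2 libraries were above every other library of the 12, and the cross of the same direction with functional LDL2 had 15.4 to 16.3 CPM. The adjusted P of sxc ldl2 against the parental mean was 0.0103 for SUVH6, and that of both crosses together 0.190.

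Counts on TE genes were then summed for each library, relative to its unscaled total. They came to 6635, 6523, and 6694 CPM in sxc ldl2 and to 6361, 9860, and 7261 in cxs ldl2, against 10011, 10828, and 10565 in suvh456 ldl2, 6703, 6578, and 6922 in cmt23 ldl2, and 2346, 2777, and 4003 in WT. The F1 plants thus stood near cmt23 ldl2 and below suvh456 ldl2, and the library of cxs ldl2 with 9860 is the one that stood apart. Without LDL2, every F1 library was above every F1 library with functional LDL2, which had 5108, 5490, and 5749 in sxc and 6061, 4893, and 5387 in cxs, and no F1 library came down to the WT range. With functional LDL2, suvh456 had 10733, 10184, and 10018, and cmt23 had 5384, 5100, and 5251. Every cmt23 ldl2 library was thus above every cmt23 library as well, so a higher level without LDL2 was not particular to the F1 plants. The suvh456 libraries overlapped with those of suvh456 ldl2.

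**Figure D1:**
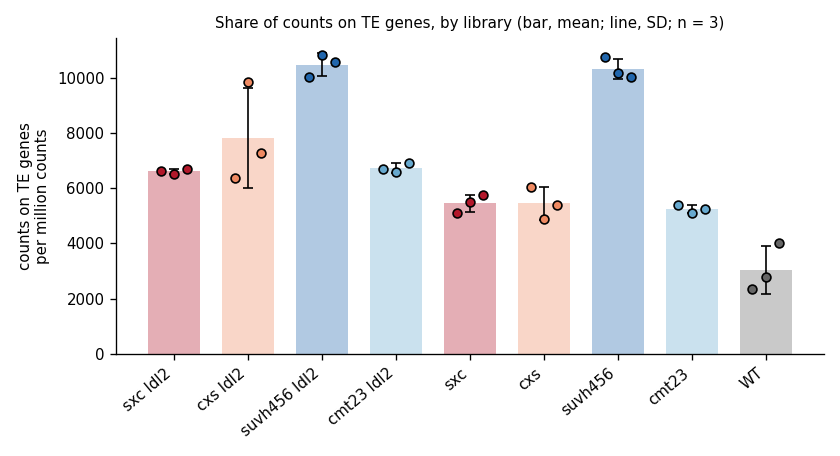
TE gene counts in CPM of the unscaled library (y axis) in each of the 27 libraries, with 1 point for each library and a bar for the mean of each of 9 genotypes (x axis). The F1 ldl2 libraries lie at 6361 to 7261 apart from 1 at 9860, next to cmt23 ldl2 and below the 10011 to 10828 of suvh456 ldl2.

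Each F1 level was then compared with the mean of both parents on the log2 scale, by the quasi-likelihood F test of edgeR with an adjusted P under 0.05. Of the 33602 genes of the table, 395 (1.18%) were lower and 461 (1.37%) were higher in the F1 plants. Of the 3903 TE genes, 140 (3.59%) were lower and 22 (0.564%) higher, whereas of the 27416 protein-coding genes 248 (0.905%) were lower and 421 (1.54%) higher. Falls outnumbered rises among the TE calls, here and under every alternative run, but the balance of the protein-coding calls turned with the processing: 2261 were lower and 1793 higher without the first cxs ldl2 library, 75 and 68 without the second cmt23 ldl2 library, 22 and 12 with the 12 libraries fitted alone, and 41 and 12 against the arithmetic parental mean. Without the second replicate of cxs ldl2, 180 genes (0.536%) were lower and 93 (0.277%) higher; the TE calls were then 109 lower, 104 of them among the 140, and 15 higher, while the protein-coding calls were 68 lower and 76 higher. Leaving out each of the 12 libraries in turn gave 246 to 4500 calls and 86 to 203 TE falls, with the lowest of both without the third cmt23 ldl2 library and the highest without the first cxs ldl2 library. Over the 628 TE genes that averaged at least 1 CPM in the 12 libraries, the median difference was -0.24 with all libraries and -0.28 without the second cxs ldl2 library, beside -0.02 and -0.01 over the 20767 genes of all kinds at that level.

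**Figure D2:**
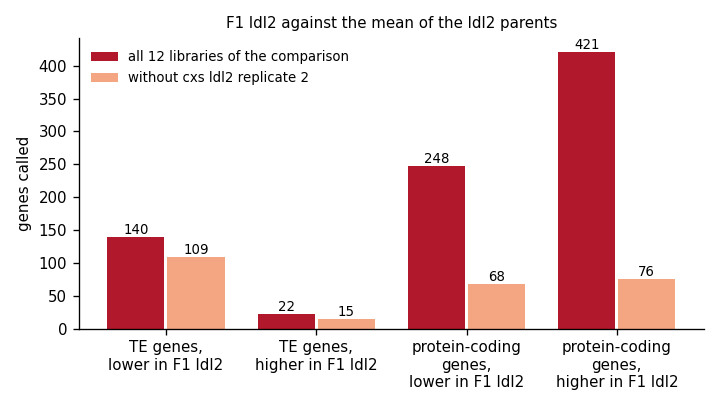
Number of genes called lower and higher in F1 ldl2 than the mean of the ldl2 parents (y axis, genes with an adjusted P under 0.05), for TE genes and for protein-coding genes, with all 27 libraries in the fit and without the second cxs ldl2 library. With all libraries 140 TE genes are lower and 421 protein-coding genes higher, and without that library 109 and 76.

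Among the TE genes that fell most, the F1 plants had almost no counts. AT3G43867 (chromosome 3, 15721998 to 15726638) had no counts in any of the 6 F1 libraries, against 3.25, 3.19, and 4.96 CPM in suvh456 ldl2, 0.437, 1.03, and 1.1 CPM in cmt23 ldl2, and 0, 0.0980, and 0.0763 CPM in WT. Taking 3 counts over the 6 F1 libraries as the limit, it was at least 84.9-fold lower in the F1 plants than in suvh456 ldl2 and at least 18.7-fold lower than in cmt23 ldl2 (adjusted P = 2.32e-05 against the parental mean). AT3G30410 (chromosome 3, 12025652 to 12027384) had 1 count in the 6 F1 libraries, against 14.1 CPM or more in each suvh456 ldl2 library (mean, 16.3 CPM), 1.83, 0.310, and 0.699 CPM in cmt23 ldl2, and no counts in WT. The ratio of suvh456 ldl2 to the F1 plants was 1100 (95% counting interval, 196 to 43400), and all F1 libraries were below all parental libraries.

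AT3G43563 (chromosome 3, 15458938 to 15460869) had the lowest adjusted P of these genes. It had 0, 0.0889, and 0.0898 CPM in sxc ldl2 and 0.0979, 0, and 0.0795 CPM in cxs ldl2, against 18.6, 15.2, and 19.6 CPM in suvh456 ldl2, 2.97, 2.69, and 3.89 CPM in cmt23 ldl2, and 0.189, 0, and 0.0763 CPM in WT. The F1 libraries thus lay within the WT range and below every parental library, with a difference of -6.73 ± 0.35 on the log2 scale (SE; adjusted P = 2.88e-11). AT3G30830 (chromosome 3, 12539534 to 12541519) had 1 count over the F1 libraries, against 4.78, 3.90, and 5.88 CPM in suvh456 ldl2 and 0.349, 1.24, and 1.70 CPM in cmt23 ldl2 (adjusted P = 2.98e-05).

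The other 4 TE genes with the largest falls were close to silent in cmt23 ldl2 as well. AT1G35650 (chromosome 1, 13187285 to 13191749) had 1 count over the F1 libraries, against 17.1, 16.4, and 18.7 CPM in suvh456 ldl2 and 0.175, 0.310, and 0.299 CPM in cmt23 ldl2 (adjusted P = 7.39e-06). It had 0.885, 0.931, and 0.754 CPM in suvh456 with functional LDL2, so its high level was seen in suvh456 ldl2 alone among the 9 genotypes. AT4G06628 (chromosome 4, 3749370 to 3753281) had the same pattern, with 2 counts over the F1 libraries, 10.7, 14.9, and 12.3 CPM in suvh456 ldl2, 0.0874, 0.207, and 0.699 CPM in cmt23 ldl2, and 0.754 to 1.32 CPM in suvh456 (adjusted P = 5.78e-05). AT5G32103 (chromosome 5, 11453775 to 11457685) and AT2G12770 (chromosome 2, 5239769 to 5245033, counted on the strand opposite to its annotation) had no F1 counts, and were at least 130-fold and at least 116-fold lower in the F1 plants than in suvh456 ldl2 (adjusted P = 0.00106 and 0.000526).

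**Figure D3:**
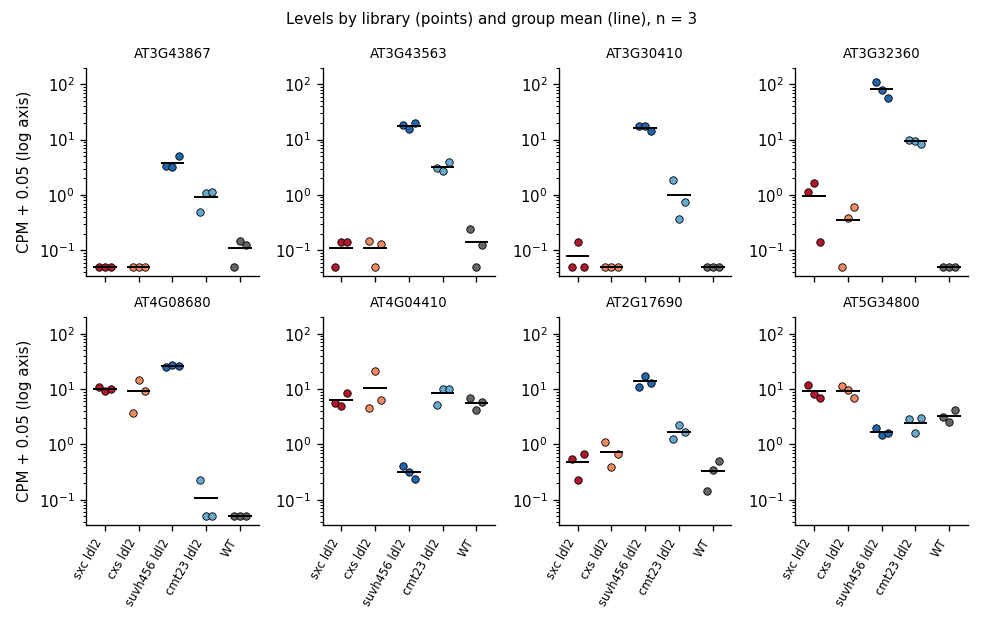
Levels of 8 genes (panels) in the 6 F1 ldl2, 3 suvh456 ldl2, 3 cmt23 ldl2, and 3 WT libraries, as CPM on a log axis after adding 0.05 CPM, with 1 point for each library. AT3G43867, AT3G43563, AT3G30410, and AT3G32360 are near or at the bottom in the F1 plants and high in suvh456 ldl2, AT4G08680 and AT4G04410 have F1 levels between or near the parents, and AT5G34800 is above both parents.

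The 140 lower TE genes had a common form. The level was higher in suvh456 ldl2 than in cmt23 ldl2 for 135 of them, with medians over the 140 genes of 0.312 CPM in the F1 plants, 8.63 CPM in suvh456 ldl2, 1.22 CPM in cmt23 ldl2, and 0 CPM in WT. The F1 mean was below the mean of cmt23 ldl2 for 137. No F1 counts were seen for 8 and at most 3 for 36. The F1 mean was at or below the highest WT library for 28, and 44 still averaged at least 1 CPM in the F1 plants. Of the 16 TE genes that the annotation names Sadhu, non-autonomous retroelements, 3 were lower and none higher. Among all 3903 TE genes, 140 were lower and 22 higher. Without the second cxs ldl2 library 2 Sadhu genes were lower. TE genes of 3 kb or longer had 76 falls and 11 rises among 1221 genes (medians of the members at 1 CPM or more, -0.31), and shorter ones had 64 and 11 among 2682 (-0.17). Those in windows of 500 kb rich in TE genes, as around the centromeres, had 75 falls and 6 rises among 2391 genes (-0.60). Those elsewhere had 65 and 16 among 1512 (-0.17), so the share of falls was lower in the TE-rich windows. Against suvh456 ldl2 alone, the medians were -1.49 in these windows and -0.21 elsewhere. Against cmt23 ldl2 alone, they were -0.14 and -0.11.

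A mean of unlike parents does not show where the F1 stands, so each parent was also taken on its own. Against suvh456 ldl2, 639 genes (1.9%) were lower and 262 (0.78%) higher in the F1 plants, 306 and 38 of them TE genes. Against cmt23 ldl2, 36 genes (0.107%) were lower and 15 (0.0446%) higher, 21 and 10 of them TE genes. Without the second cxs ldl2 library, 505 (1.5%) and 192 (0.571%) were called against suvh456 ldl2, with 310 and 34 TE genes, and 34 (0.101%) and 14 (0.0417%) against cmt23 ldl2, with 22 and 8. These comparisons share the F1 libraries. The counts moved more with other choices: without the first cxs ldl2 library there were 3317 calls against suvh456 ldl2 and 1580 against cmt23 ldl2, and with DESeq2 1973 and 227. Leaving out each library in turn gave 182 to 373 TE falls against suvh456 ldl2 and 15 to 57 against cmt23 ldl2, with the lowest without the second suvh456 ldl2 library and the third cmt23 ldl2 library and both highest without the first cxs ldl2 library.

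The position of the F1 plants was also described, with no test, among TE genes that differed between the parents. There were 256 TE genes with at least 1 CPM in suvh456 ldl2 and a level at least 4-fold above that of cmt23 ldl2. Their medians were 0.238 CPM in the F1 plants, 3.44 CPM in suvh456 ldl2, 0.29 CPM in cmt23 ldl2, and 0 CPM in WT. The F1 mean was within 2-fold of cmt23 ldl2 or below it for 190 and at or below it for 146. Without the second cxs ldl2 library, the F1 median of these genes was 0.145 CPM, and 210 and 176 genes were at these positions. In the 34 TE genes with the opposite difference between the parents, the F1 plants stood with the higher parent: the medians were 21.2 CPM in the F1 plants, 2.79 CPM in suvh456 ldl2, 23 CPM in cmt23 ldl2, and 15.6 CPM in WT. The F1 medians were thus closer to cmt23 ldl2 than to suvh456 ldl2 in both sets, which were chosen on parental levels only. Among 283 protein-coding genes that were likewise higher in suvh456 ldl2, the F1 mean was within 2-fold of cmt23 ldl2 or below it for 64 and at or below it for 22, with medians of 2.36 CPM in the F1 plants, 5.28 CPM in suvh456 ldl2, 0.554 CPM in cmt23 ldl2, and 0.627 CPM in WT. The F1 mean was below the log-scale parental mean for 217 of these 256 TE genes and for 107 of the 283 coding genes, and below the arithmetic parental mean for 253 and 181.

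**Figure D4:**
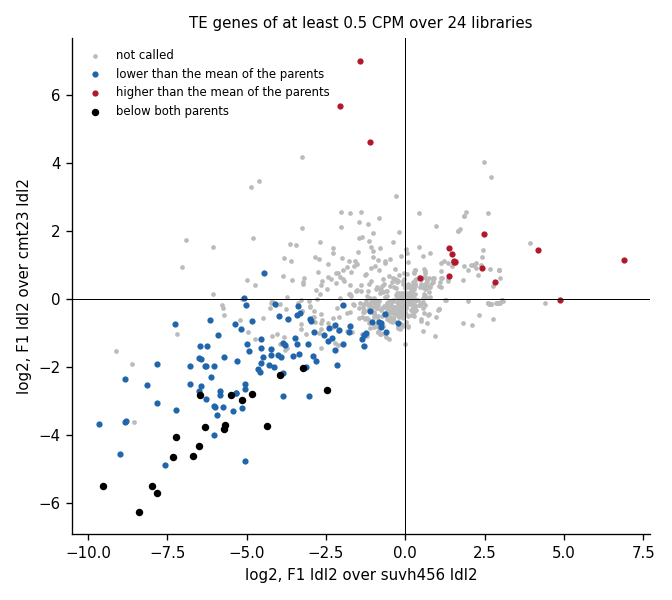
Difference of F1 ldl2 from suvh456 ldl2 (x axis) and from cmt23 ldl2 (y axis), both in log2, with 1 point for each TE gene that averages at least 0.5 CPM and colors for the genes called against the parental mean. Most colored points lie far to the left and near 0 or below on the y axis; the axes share the F1 libraries, so the slope of the cloud is not a result.

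Genes below both parents show a level in the F1 that neither parent had. By a test that requires the F1 to differ from each parent in the same direction, 24 genes (0.0714%) lay below both and 1 (0.00298%) above both. Of the 24, 20 were TE genes and 4 protein-coding genes. Without the second cxs ldl2 library 23 (0.0684%) were below both, 21 of them among the 24, and 1 above, whereas without the first cxs ldl2 library 166 were below both among 210 outside both. The 20 TE genes had medians of 0.317 CPM in the F1 plants, 13.1 CPM in suvh456 ldl2, 3 CPM in cmt23 ldl2, and 0.0127 CPM in WT. Among the TE genes below both that averaged at least 1 CPM, AT3G43563, AT3G43867, AT3G30830, and AT3G30410 lay farthest below the nearer parent (adjusted P = 5.02e-08, 0.00278, 0.00287, and 0.0285). AT3G30410 was not called without the second cxs ldl2 library or without the first cmt23 ldl2 library, and its adjusted P over all alternatives was 0.000359 to 0.445.

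AT2G34655, a protein-coding gene with no known function in the annotation (chromosome 2, 14596631 to 14597540), had 12.2, 7.29, and 8.53 CPM in sxc ldl2 and 13.6, 2.60, and 6.60 CPM in cxs ldl2, against 82.3, 79.7, and 88.0 CPM in suvh456 ldl2, 46.2, 47.0, and 51.1 CPM in cmt23 ldl2, and 1.41, 0.882, and 1.3 CPM in WT. The F1 libraries lay between WT and the parents and overlapped with neither. The difference from the nearer parent was -2.52 on the log2 scale (adjusted P = 2.95e-06). The others were AT5G07570, a glycine- and proline-rich protein, with 0.0795 to 0.503 CPM in the F1 libraries, 6.50 to 9.38 CPM in suvh456 ldl2, and 1.86 to 5.50 CPM in cmt23 ldl2; AT5G39160, a cupin, which was not called without the first cmt23 ldl2 library (adjusted P = 0.165); and MRU1, a gene known to respond in a mutant that accumulates methionine. MRU1 had 6.05 to 12.5 CPM in the F1 libraries, 28.2 to 37.9 CPM in suvh456 ldl2, 13.9 to 18.7 CPM in cmt23 ldl2, and 4.90 to 7.40 CPM in WT.

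AT5G34800, a TE gene on chromosome 5 (12971144 to 12973180), was the 1 gene above both parents in the fit of all 27 libraries. It had 12, 8.27, and 7 CPM in sxc ldl2 and 11.4, 9.72, and 6.84 CPM in cxs ldl2, against 1.90, 1.42, and 1.56 CPM in suvh456 ldl2, 2.80, 1.55, and 2.90 CPM in cmt23 ldl2, and 3.11, 2.55, and 4.20 CPM in WT. Every F1 library was above every parental and WT library, and the difference from the nearer parent was 1.92 on the log2 scale (adjusted P = 0.00334, and 1.37e-06 to 0.0725 over all alternatives, the highest without the second cmt23 ldl2 library). The F1 plants with functional LDL2 had 5.92 to 11.6 CPM, against 0.466 to 1.53 CPM in their parents.

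For the 22 TE genes called higher than the log2 parental mean, the medians were 2.54 CPM in the F1 plants, 0.554 CPM in suvh456 ldl2, 0.655 CPM in cmt23 ldl2, and 1.5 CPM in WT. The F1 mean was below that of suvh456 ldl2 for 3 of them, 1 of which was AT4G08680. AT4G08680 (chromosome 4, 5542431 to 5544862) had 10.7, 9.25, and 10.2 CPM in sxc ldl2 and 3.72, 14.7, and 9.22 CPM in cxs ldl2, against 25.1, 26.7, and 25.9 CPM in suvh456 ldl2, 0.175, 0, and 0 CPM in cmt23 ldl2, and no counts in WT. It was 2.79 ± 0.37 higher than the log2 mean (adjusted P = 0.000168) but below the arithmetic mean of the parents, at -0.47 on the log2 scale, and it was far below suvh456 ldl2 in every F1 library. Against the arithmetic mean, 134 TE genes were lower and 4 higher, so the number of falls was close under either mean and that of rises was not. AT4G04410 (chromosome 4, 2189515 to 2193763) had 4.60 to 21.0 CPM in the F1 libraries, 0.184 to 0.361 CPM in suvh456 ldl2, 5.15 to 10.2 CPM in cmt23 ldl2, and 4.12 to 6.79 CPM in WT. AT4G08100 (chromosome 4, 5079652 to 5083590, counted on the strand opposite to its annotation) had 0.671 to 3.57 CPM in the F1 libraries, 0 to 0.266 CPM in suvh456 ldl2, 0.517 to 0.786 CPM in cmt23 ldl2, and 2.07 to 2.67 CPM in WT.

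To ask where the F1 difference itself depended on LDL2, it was compared with that of the crosses with functional LDL2, in which no library is shared. In those crosses, 203 genes (0.604%) were lower and 38 (0.113%) higher than the parental mean, 155 and 15 of them TE genes. The difference changed with LDL2 for 7 genes, all TE genes: without LDL2, the F1 stood higher relative to its parents for 6 (0.0179%) and lower for 1 (0.00298%). AT3G29648 had 12.8, 12.5, and 15.5 CPM in sxc ldl2 and 5.77, 9.64, and 15.7 CPM in cxs ldl2, against 42.3, 48.6, and 36.7 CPM in suvh456 ldl2 and 8.56, 4.34, and 5.39 CPM in cmt23 ldl2. With functional LDL2, it had no counts in sxc and 0.631, 0.104, and 0.322 CPM in cxs, against 21.2, 22.9, and 19.3 CPM in suvh456 and 1.67, 2.93, and 2.91 CPM in cmt23. The F1 mean was thus between the parents without LDL2, where 1 cxs ldl2 library was within the range of cmt23 ldl2, and all F1 libraries were below both parents with LDL2. The F1 difference changed by 6.34 ± 0.57 on the log2 scale (adjusted P = 1.09e-05).

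Its neighbor AT3G29650, on the same strand, behaved alike. It had 21.6, 27, and 26.4 CPM in sxc ldl2 and 7.54, 24.1, and 31.2 CPM in cxs ldl2, against 66.6, 85.7, and 59.9 CPM in suvh456 ldl2 and 12.4, 10.6, and 11.8 CPM in cmt23 ldl2. The first cxs ldl2 library, at 7.54 CPM, was thus below every cmt23 ldl2 library. With functional LDL2, AT3G29650 had 0 to 0.552 CPM in the F1 libraries, 35.8 to 41.0 CPM in suvh456, and 3.98 to 5.26 CPM in cmt23. The change was 5.83 ± 0.50 (adjusted P = 3.03e-06). Neither gene had counts in WT. The genes start within 3 kb of each other, and the counts do not show whether they share a transcript.

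The other genes of this kind had smaller changes. AT3G42545 had 1.76 to 9.34 CPM in the F1 ldl2 libraries, 44.6 to 55.8 CPM in suvh456 ldl2, and 20.2 to 25.8 CPM in cmt23 ldl2, so the F1 plants fell below both parents without LDL2 as well; with LDL2, the F1 libraries had 0 to 0.947 CPM, and the change was 3.31 ± 0.42 (adjusted P = 0.00121). AT4G04000 had 1.43 to 25.1 CPM in the F1 ldl2 libraries and 0 to 2.37 CPM in the F1 libraries with LDL2 (change 4.94 ± 0.79, adjusted P = 0.0206; 3.12e-06 to 0.435 over all alternatives, and 0.0960 without the second sxc library). AT1G35995 and AT5G26345 averaged 1.49 and 11.5 CPM in the F1 ldl2 plants and 0.155 and 1.32 CPM in the F1 plants with LDL2 (adjusted P = 0.0246 and 0.0408, and up to 0.273 over all alternatives); AT5G26345 was not called without the second cxs ldl2 library or the first cmt23 ldl2 library, nor AT1G35995 without the second sxc library.

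AT2G01840 changed the other way, by -1.31 ± 0.19 (adjusted P = 0.00764). It had 66.2, 70.7, and 41.6 CPM in sxc ldl2 and 42.3, 32.9, and 59.8 CPM in cxs ldl2, against 100, 79.5, and 93.6 CPM in suvh456 ldl2 and 60.4, 50, and 52.0 CPM in cmt23 ldl2. With functional LDL2, the F1 libraries had 29.3 to 38.4 CPM, suvh456 had 79.7 to 83.1 CPM, and cmt23 had 3.86 to 4.66 CPM. The F1 plants averaged 52.2 CPM without LDL2 and 33.5 CPM with it, and cmt23 ldl2 averaged 54.2 CPM, against 4.13 CPM in cmt23, so the parental mean was higher without LDL2 as well. This call was lost against the arithmetic parental mean, with an adjusted P of 1.

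**Figure D5:**
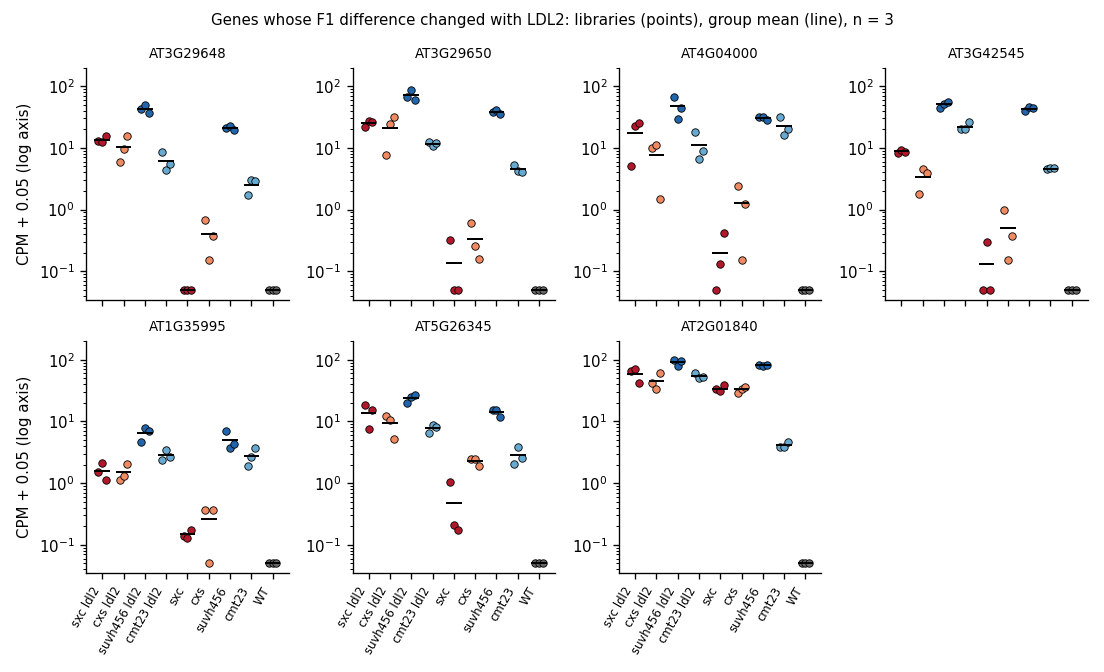
Levels of the 7 TE genes (panels) whose F1 difference changed with LDL2, as CPM on a log axis after adding 0.05 CPM, in the F1 and parental libraries without LDL2 and with it, with 1 point for each library. AT3G29648 and AT3G29650 have mean F1 levels between the parents in ldl2 and near 0 with LDL2. Their first cxs ldl2 library lies within the cmt23 ldl2 range for AT3G29648 and below it for AT3G29650.

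The bases around the annotated starts are shown for the neighboring pair with the largest change with LDL2, for the gene with the lowest adjusted P among the falls described, and for the gene above both parents, because CHG methylation at TE genes is what CMT3 and the SUVH enzymes maintain. Each is 300 bases of the TAIR10.1 reference assembly, 250 before and 50 from the annotated start, on the strand of the gene, with CHG sites of either strand in capitals (CAG, CTG, CCG, and CGG).
AT3G29648: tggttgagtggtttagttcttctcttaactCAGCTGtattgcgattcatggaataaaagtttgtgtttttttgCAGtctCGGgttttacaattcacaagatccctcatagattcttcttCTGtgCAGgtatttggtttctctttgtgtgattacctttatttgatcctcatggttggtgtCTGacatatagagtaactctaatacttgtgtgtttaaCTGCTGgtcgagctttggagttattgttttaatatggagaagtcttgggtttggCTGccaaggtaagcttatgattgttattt
AT3G29650: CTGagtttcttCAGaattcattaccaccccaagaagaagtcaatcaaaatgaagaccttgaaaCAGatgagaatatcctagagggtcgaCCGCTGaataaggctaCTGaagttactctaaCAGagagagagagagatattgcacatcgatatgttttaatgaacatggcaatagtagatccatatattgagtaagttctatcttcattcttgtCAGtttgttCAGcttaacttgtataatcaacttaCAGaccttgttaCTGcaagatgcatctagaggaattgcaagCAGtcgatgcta
AT3G43563: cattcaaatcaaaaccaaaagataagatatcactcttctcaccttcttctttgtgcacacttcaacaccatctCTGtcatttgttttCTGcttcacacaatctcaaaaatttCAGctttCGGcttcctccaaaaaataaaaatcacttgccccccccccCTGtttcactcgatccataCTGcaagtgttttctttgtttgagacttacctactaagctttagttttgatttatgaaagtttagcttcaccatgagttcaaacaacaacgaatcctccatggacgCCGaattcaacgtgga
AT5G34800: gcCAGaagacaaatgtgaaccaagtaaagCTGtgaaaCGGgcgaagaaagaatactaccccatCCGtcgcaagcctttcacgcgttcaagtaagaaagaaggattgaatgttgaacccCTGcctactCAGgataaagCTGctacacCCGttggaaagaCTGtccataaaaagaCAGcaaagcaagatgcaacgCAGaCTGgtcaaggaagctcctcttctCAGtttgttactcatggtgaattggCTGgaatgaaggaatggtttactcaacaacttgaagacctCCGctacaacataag
The windows are chr3:11514686-11514985 and chr3:11517576-11517875 on the plus strand, chr3:15460820-15461119 on the minus strand, and chr5:12970894-12971193 on the plus strand. They hold 10, 12, 7, and 15 CHG sites in the order shown. The median was 8 over the windows of all 3903 TE genes and 7 over those of 27205 protein-coding genes, and 99.5% and 99.3% of these windows hold at least 1. As many sites as AT3G29648 and AT3G29650 have were found in 37.0% and 24.2% of the TE windows, so these windows are not unusual in this respect. For AT3G43563 and AT5G34800, 66.5% and 11.4% of TE windows hold as many. The second window begins within AT3G29648, whose end lies just before the start of AT3G29650.

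The study lists LDL2-regulated TE genes, chosen by their lower CHG methylation in the F1 ldl2 plants than in F1 plants with LDL2, and so from other measurements of the same crosses. Counts were found in the 12 libraries of the comparison for 187 of them. Of the whole list, 29 (14.9%) were lower in the F1 ldl2 plants than in the parental mean and 3 (1.55%) higher, and 26 and none without the second cxs ldl2 library. The median over the 114 members at 1 CPM or more was -0.57. In the crosses with LDL2, 51 members were lower and 1 higher, with a median of -1.69 over the same 114 genes. Over all genes, 0.604% were lower and 0.113% higher in those crosses. Of the 29, 15 still averaged at least 1 CPM in the F1 ldl2 plants, 2 were at or below the highest WT library, and their medians were 1.45 CPM in the F1 plants, 18.8 CPM in suvh456 ldl2, 6.41 CPM in cmt23 ldl2, and 0 CPM in WT. The list holds 6 of the 7 genes whose F1 difference changed with LDL2, all but AT1G35995. It was chosen by a difference between F1 plants of these crosses with and without LDL2, so this overlap is not independent support.

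AT3G32360 (chromosome 3, 13282356 to 13287540, counted on the strand opposite to its annotation) shows how far a listed gene could still fall. It had 1.09, 1.60, and 0.0898 CPM in sxc ldl2 and 0, 0.335, and 0.557 CPM in cxs ldl2, against 112, 78.7, and 55.4 CPM in suvh456 ldl2, 9.96, 9.41, and 8.29 CPM in cmt23 ldl2, and no counts in WT. All F1 libraries were below all parental libraries, and the difference was -5.64 ± 0.54 on the log2 scale (adjusted P = 1.98e-06). The differences were -4.70 ± 0.33 for AT5G28545, -4.78 ± 0.41 for AT1G36040, and -4.64 ± 0.39 for AT3G43640, with 0.168 to 1.25, 0 to 1.09, and 0 to 0.801 CPM in the F1 libraries and adjusted P of 6.73e-08, 4.23e-07, and 3.59e-07. AT1G36260 had no F1 counts and was at least 19.5-fold lower than in suvh456 ldl2 and at least 14.4-fold lower than in cmt23 ldl2 (adjusted P = 0.0291, and 0.0119 to 0.0889 over all alternatives). The 3 higher members, AT1G08105, AT1G78095, and AT1G13660, had adjusted P of 0.0466, 0.0391, and 0.0492 and were not called without the second cxs ldl2 library.

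Of the 14 TE genes that the study lists as ASHH3-regulated, 1 was lower and none higher, beside 1.18% lower and 1.37% higher over all genes. The study chose them by CHG methylation in F1 plants of the suvh456 and cmt23 cross, with and without ASHH3. The median of the 12 at 1 CPM or more was -0.48. The lower gene, AT5G43800, is also on the list of LDL2-regulated TE genes and so is among the falls of that list. AT5G43800 had 13.8, 7.38, and 8.71 CPM in sxc ldl2 and 4.40, 7.54, and 10.7 CPM in cxs ldl2, against 31.6, 31.4, and 23.6 CPM in suvh456 ldl2, 13.9, 11.8, and 19.0 CPM in cmt23 ldl2, and at most 0.0943 CPM in WT. The difference was -1.25 ± 0.24 (adjusted P = 0.00661), and the F1 libraries overlapped with those of cmt23 ldl2.

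Loci known to be silenced by DNA methylation were described from a list of 4. Of these 2 were lower and none higher, beside 1.18% lower and 1.37% higher over all genes. SDC, an F-box gene kept silent by methylation of repeats in its promoter, had 0.495, 0.178, and 0.629 CPM in sxc ldl2 and 1.08, 0.335, and 0.636 CPM in cxs ldl2, against 10.9, 17.3, and 13.1 CPM in suvh456 ldl2, 1.22, 2.17, and 1.60 CPM in cmt23 ldl2, and 0.0943, 0.294, and 0.458 CPM in WT. Every F1 library was below every parental library, and the difference from the parental mean was -3.12 ± 0.33 (adjusted P = 5.41e-06). QQS, an orphan gene that affects starch content, had 10.2, 8.98, and 8.98 CPM in sxc ldl2 and 9.98, 7.63, and 10.1 CPM in cxs ldl2, against 38.4, 39.3, and 39.0 CPM in suvh456 ldl2, 17.9, 8.48, and 12.1 CPM in cmt23 ldl2, and 2.17, 1.86, and 2.14 CPM in WT. It differed by -1.27 ± 0.17 (adjusted P = 8.11e-05), overlapped with cmt23 ldl2, and stayed above every WT library. FWA, a homeodomain gene silent in vegetative tissue, and EVADE, a Copia retrotransposon, had 27 and 3 counts over the 6 F1 libraries and were not called (adjusted P = 0.602 and 0.325).

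Other protein-coding genes with large falls had low F1 levels and were highest in suvh456 ldl2. AT3G43340, annotated as a pseudouridine synthase, had 1 count over the F1 libraries, against 6.41, 5.67, and 5.33 CPM in suvh456 ldl2 and 0.175, 0.517, and 0.599 CPM in cmt23 ldl2 (adjusted P = 0.000110). AT5G41830, with leucine-rich repeats, had 0 to 1.26 CPM in the F1 libraries, 12 to 15.6 CPM in suvh456 ldl2, and 1.03 to 1.83 CPM in cmt23 ldl2 (adjusted P = 0.000748). AT5G35050 and AT4G16215 had similar levels, and the adjusted P of AT4G16215, 0.0251, was 0.00288 to 0.107 over all alternatives. Of the 239 lower genes counted on their annotated strand, however, the F1 mean of 203 was at or below the highest WT library, and their median was 23.5 CPM in the F1 plants, 35.5 CPM in suvh456 ldl2, 32.5 CPM in cmt23 ldl2, and 25.1 CPM in WT.

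The number of rises of protein-coding genes was 68 to 1793 when each of the 12 libraries was left out in turn. Of the 421, 75 were among the 76 called without the second cxs ldl2 library, and of the 78 on the strand opposite to the annotation 1 call was left in all. TPPB, which encodes a trehalose-6-phosphate phosphatase, was called either way: it had 1.19, 1.96, and 1.35 CPM in sxc ldl2 and 1.66, 2.51, and 1.99 CPM in cxs ldl2, against 0, 0.0886, and 0 CPM in suvh456 ldl2, 1.40, 1.55, and 1.60 CPM in cmt23 ldl2, and 3.21, 3.43, and 3.89 CPM in WT (2.82 ± 0.42, adjusted P = 0.000443, and 0.000382 to 0.0775 over all alternatives). The F1 libraries overlapped with cmt23 ldl2 and were below WT. It lies beside the listed TE gene AT1G78095, which had 1.76 to 10.5 CPM in the F1 libraries and averaged 29.5 CPM in suvh456 ldl2, 0.116 CPM in cmt23 ldl2, and 0 CPM in WT. AT5G49590, AT1G07560, BGLU28, AT2G07732, and AT3G20370 were among the 6 largest rises but had adjusted P of 0.121 to 0.283 without that library. The highest F1 value was in that library for AT5G49590 (9.39 CPM), AT1G07560 (7.80 CPM), and AT2G07732 (28.8 CPM), and in the third sxc ldl2 library for BGLU28 (14.9 CPM) and for AT3G20370.

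The lists of the silencing machinery were then examined. None of 12 genes for the upkeep or removal of DNA methylation, 18 of RNA-directed DNA methylation, 5 of transcript silencing, and 11 of histone marks and heterochromatic histones was called. Over all genes 1.18% were lower and 1.37% higher, and at that share lists of this size would hold few calls or none. ROS1, the DNA demethylase, averaged 99.1 CPM in the F1 plants, 66.2 CPM in suvh456 ldl2, 136 CPM in cmt23 ldl2, and 110 CPM in WT, so it was between its parents. IBM1, the H3K9 demethylase, averaged 17.7 CPM in the F1 plants, 15.8 CPM in suvh456 ldl2, 16.7 CPM in cmt23 ldl2, and 30.0 CPM in WT. Of 6 mutated genes, SUVH4 and CMT3 were higher than the parental mean (0.48 ± 0.12 and 0.50 ± 0.10, adjusted P = 0.0347 and 0.00801), as a level between unlike parents can be on a log scale, and SUVH4 was not called without the second cxs ldl2 library (adjusted P over all alternatives, 0.00915 to 0.647). CMT3 was not called with the 12 libraries alone (adjusted P = 0.0660) or against the arithmetic mean, where it differed by 0.23 (adjusted P = 0.398).

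Among 9 clock genes, 1 was lower and 3 were higher, beside 1.18% lower and 1.37% higher over all genes. CCA1, a morning-expressed repressor, had 14.4, 15.9, and 7.09 CPM in sxc ldl2 and 13.4, 12.2, and 11.8 CPM in cxs ldl2, against 32.7, 19.5, and 25.4 CPM in suvh456 ldl2 and 18.8, 19.2, and 21.5 CPM in cmt23 ldl2 (-0.86 ± 0.18, adjusted P = 0.0157). The evening genes TOC1, LUX (annotated as PCL1), and ELF4 were higher by 0.41 ± 0.10, 0.48 ± 0.12, and 0.49 ± 0.12 (adjusted P = 0.0318, 0.0365, and 0.0381). The other members were not called. They differed by -0.85 (PRR9), -0.52 (LHY), -0.12 (GI, also an evening gene), -0.09 (PRR5), and -0.05 (PRR7). The F1 and parental libraries of CCA1 did not overlap, but all 4 calls were lost when the first suvh456 ldl2 library was left out (adjusted P = 0.0570, 0.0938, 0.101, and 0.102). The time of harvest is not given in the sources used here, and its part in this was not tested. Of 6 defense genes, RPP4, a resistance gene of the cluster around SNC1, was lower, with a difference of -0.41 ± 0.08 (adjusted P = 0.00641, and 8.25e-07 to 0.131 over all alternatives). None of the genes for heat shock (8), anthocyanin (8), photosynthesis (13), DNA damage (6), flowering (3), or of seed (12), flower (5), and root (7) markers was called. At the share of calls over all genes, these lists would hold few or none. Medians of the members at 1 CPM or more were shifted in some lists, beside -0.02 over all genes. They were -0.66 for photosynthesis (13 members at that level), 0.81 for DNA damage (5), 0.64 for heat shock (5), and 0.68 for seed markers (2). Without the second cxs ldl2 library these medians were -0.47, 0.7, 0.43, and 0.37. Counts of both seed members came from the strand other than the annotated one. The seed value therefore does not measure the annotated seed transcripts and is not a shift of the whole list. Those of the anthocyanin, flowering, and root lists were -0.02, 0.03, and 0.07 with all libraries.

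The directions of the cross were finally compared with the parental mean on their own. In sxc ldl2, 69 genes (0.205%) were lower and 39 (0.116%) higher, 54 and 9 of them TE genes. In cxs ldl2, 2179 (6.48%) were lower and 3279 (9.76%) higher, 171 and 152 of them TE genes, but without its second replicate 129 (0.384%) and 55 (0.164%), of which 61 and 9 were TE genes. In the fit without that library, sxc ldl2 had 81 lower genes (0.241%) and 51 higher ones (0.152%), and 61 of its lower genes were TE genes as well. Between cxs ldl2 and sxc ldl2, 465 genes (1.38%) were lower and 485 (1.44%) higher. By the same edgeR test there were 5268 calls without the first cxs ldl2 library, 2 without the first sxc ldl2 library, 35 without the third sxc ldl2 library, and 252 without the third cxs ldl2 library. Without the second cxs ldl2 library there were none in either direction, where 2039 lower and 1708 higher genes had an unadjusted P under 0.05.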

How the data were processed

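Per-gene counts of 27 mRNA-seq libraries (9 genotypes, 3 each) were used. Libraries from the KAPA mRNA HyperPrep Kit were read as 150-base pairs. STAR mapped them to TAIR10 after 50 bases were clipped at the 3′ end, and the authors deposited its gene counts, not normalized. For TE genes, they used the strand with the larger counts; the deposited table counts 1767 TE genes and 4528 protein-coding genes on the strand opposite to their annotation, so a count there is not of the annotated transcript. Reads shared by near-identical TE copies are not resolved here.

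Counts were tested with edgeR (version 4.0.16; R 4.3.3): TMM scaling, a mean for each genotype over all 27 libraries, the quasi-likelihood F test, no filter, and Benjamini-Hochberg adjustment over 33602 genes with a threshold of 0.05. The parental mean was taken on the log scale. For a position outside both parents, the larger parental P value was used where both differences had the same sign. On simulated counts for this comparison over 33602 genes, 89% of 100 genes changed 2-fold and 99% of 100 changed 4-fold were called, with 7 calls among the unchanged genes. The changed genes were drawn from genes with higher counts only, and all genotypes otherwise had the same levels. These rates therefore do not cover genes with few counts, such as many of the TE falls, or a library that stands apart. Folds against groups with no counts are bounds at 3 counts over the group; intervals cover counting error only. Chromosome positions and start windows are from TAIR10 and TAIR10.1. No replicate libraries were alike within sampling noise (lowest chi-square per degree of freedom, 4.41). The alternatives were RLE scaling, filterByExpr, the compared genotypes alone, an arithmetic parental mean, the replicate number as a block, the Wald test of DESeq2 (version 1.42.0), and leaving out each library.

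Named genes are, among called genes averaging at least 1 CPM, the 8 largest falls and 4 largest rises of TE genes and the 6 of each of protein-coding genes with all F1 libraries on one side of the parental mean; the 4 farthest outside both parents; the 4 largest changes with LDL2 in each direction; called list members; and the mutated genes. AT1G35995, AT5G26345, AT1G08105, AT1G13660, AT1G78095, ROS1, IBM1, FWA, and EVADE were named outside this rule. The comparison and lists were chosen with earlier results of these data known. ChIP-seq, methylation data, and the other mRNA-seq tables of the series were not used here.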

Additional observations from a re-analysis of the deposited data

Results flagged for a closer look

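The difference of the F1 plants from their parents changed with LDL2, by the interaction test of edgeR, for 7 TE genes. On the log2 scale the change was 6.34 for AT3G29648, 5.83 for AT3G29650, 4.94 for AT4G04000, 3.31 for AT3G42545, 3.07 for AT1G35995, 2.37 for AT5G26345, and -1.31 for AT2G01840, where a positive value means a higher F1 level relative to the parents without LDL2.

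Between cxs ldl2 and sxc ldl2, which carry the same alleles, 950 genes differed by the test of the difference itself. Calls were 0 without the second cxs ldl2 library, 2 without the first sxc ldl2 library, 35 without the third sxc ldl2 library, 252 without the third cxs ldl2 library, and 5268 without the first cxs ldl2 library. The second cxs ldl2 library had counts on 30088 genes and a photosynthesis sum of 24900 CPM; the part of RNA quality, tissue, or library preparation in this was not tested.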

How the results depend on the processing

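Of 58 results for named genes, 29 stayed on the same side of the threshold under every alternative. Of the 140 TE falls, 36 have at most 3 counts over the F1 libraries, so depth limits what is known of their size. The number of all calls moved by over 1.5 times without any 1 of the 12 libraries, and the cause was not tested.

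In place of 856 calls in all, there were 1336 with filterByExpr, 121 with the compared genotypes alone (here 12 libraries), 193 against the arithmetic parental mean, and 2228 with DESeq2. In place of 140 TE falls there were 80 with the compared genotypes alone. The 22 TE rises were 4 alone, 4 against the arithmetic mean, and 38 with DESeq2. The 248 protein-coding falls were 428 with filterByExpr, 22 alone, 41 against the arithmetic mean, and 754 with DESeq2, and the 421 protein-coding rises were 691, 12, 12, and 1174. Against suvh456 ldl2 (901), there were 260 calls alone and 1973 with DESeq2, and against cmt23 ldl2 (51), 16 and 227. Outside both parents (25), there were 16 alone and 38 with DESeq2, and below both (24), 15 alone. For the change with LDL2 (7), there were 3 against the arithmetic mean and 24 with DESeq2. For sxc ldl2 (108) there were 192 with DESeq2. For cxs ldl2 (5458) there were 1298 alone and 1080 against the arithmetic mean. Between the crosses (950), there were 1689 with filterByExpr, 0 alone, and 2868 with DESeq2.

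Leaving out 1 library at a time gave 246 to 4500 calls in all (246 without the third cmt23 ldl2 library, 4500 without the first cxs ldl2 library), 86 to 203 TE falls, 11 to 74 TE rises, 58 to 2261 protein-coding falls, and 68 to 1793 protein-coding rises. It gave 21 to 35 falls of LDL2-regulated TE genes, 324 to 3317 calls against suvh456 ldl2, 27 to 1580 against cmt23 ldl2, 17 to 210 outside both parents, 16 to 166 below both, 4 to 19 for the change with LDL2, 45 to 132 for sxc ldl2, 184 to 9954 for cxs ldl2, and 0 to 5268 between the crosses. All highest counts of these but that of sxc ldl2 came without the first cxs ldl2 library.

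The sign turned for AT4G08680 against the arithmetic mean (-0.47), for LDL2 without 1 library (-0.18 to 0.13), and for CMT2 with RLE scaling (0.02), filterByExpr (0.01), and DESeq2 (0.02) and without 1 library (-0.08 to 0.05).

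The replicate numbers were not used as pairs in the main fit. Of 18 same-numbered pairs of libraries, 7 had deviations that correlated over 0.1 (-0.346 to 0.239). Of the 12 libraries, 4 correlated best with their own number. By replicate, the 2 parents correlated at 0.17, 0.207, and 0.17, and sxc ldl2 with suvh456 ldl2 at 0.157, -0.279, and -0.346. Whether some libraries share a batch was not tested. With the replicate number as a block, there were 838 calls, with 131 TE falls.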
